A study of Homo sapiens with 2 samples.

Results

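The 39 genes described here encode the kinetochore and the spindle checkpoint, and were taken by symbol from the gene table, keeping those with at least 20 reads in 1 library. All 39 were found and all 39 passed, out of 15159 genes listed and 11659 past the same filter. They were divided by role into 15 inner centromere genes, 15 outer kinetochore genes and 9 checkpoint genes. Both libraries came from HaCaT cells, human keratinocytes immortalized without an introduced gene. One dish was transfected with the empty MigR1 vector (vector control) and 1 dish with MigR1 carrying FLI1 (FLI1 overexpression), an ETS-family transcription factor. Each dish received 4 μg of plasmid by lipid transfection, and RNA was taken 2 days later. Transfection was checked by GFP per the labels' protocols, which mention no sorting, so untransfected cells may be part of each library. The study was designed around FLI1 and psoriasis-linked inflammatory genes, and the cell division genes below were measured in the same libraries.

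With 1 library per group there is no spread between replicates to compare a difference with. Every 95% interval below compares these 2 libraries, not the conditions, and covers counting error only. FLI1 itself counted 64 reads with the empty vector and 2452 with the FLI1 plasmid, in the direction of the labels. All 10 keratinocyte markers looked up had at least 20 reads, and they differed in direction, from KRT5 at a log2 ratio of -0.26 to DSG3 at 0.26 and KRT17 at 0.44. Of 24 markers of fibroblasts, melanocytes, leukocytes and endothelium, COL1A1, MITF and VWF reached 20 reads in 1 library, and the defining genes PTPRC, PECAM1, TYR and DCN are not listed in the gene table. The 24 together had 226.98 and 278.72 reads, and their part in any result below was not tested. VWF had 52 and 90 reads, MITF 56 and 72 and COL1A1 100 and 98. Library totals were 14497105 reads for the control and 14677273 for the FLI1 library.

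The kinetochore is the protein assembly that ties each chromosome to spindle microtubules during mitosis. Its inner part rests on nucleosomes that carry the histone H3 variant CENP-A, and its outer part holds the microtubule-binding NDC80 and SKA complexes. While any kinetochore is unattached, the spindle checkpoint keeps the anaphase-promoting complex inactive. Many genes of this machinery are transcribed mainly in G2 and M phase, and their promoters often carry the CHR element (cell cycle genes homology region), bound by the MuvB core of the DREAM complex, near the transcription start. In keratinocytes these genes are active in dividing basal cells and are shut off as cells differentiate.

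The CHR letters TTTGAA or TTCGAA, on either strand, were sought in RefSeq promoter windows (GRCh38.p14) reaching from 250 bases before to 50 bases after each annotated start. A window was found for 32 of the 39 genes, and TTK, KNTC1, CENPL, KNL1, CENPM, CENPH and BUB3 had none. Some windows, such as those of CENPA, CENPP, NUF2 and SPC25, lie inside the gene span of the GENCODE 29 annotation, away from its outermost start. CHR letters stood in the windows of 16 of these 32 genes, or 50%, against 19.5% of all 27305 genes with a window and 15.5% of those past the read filter. Within 50 bases of the start on either side they stood in 14 of 32 genes, against 6.24% of all genes and 4.84% of those past the filter. That narrower window was chosen after the positions had been seen. The stretches below are those with CHR letters between 90 bases before and 10 bases after the start, and are shown because they let the position of the element be read directly. They run 5′ to 3′ on the strand of the gene, the start site follows base 90, and capitals mark the CHR letters or their reverse complement.
BUB1 (chr2:110678054-110678153, minus strand): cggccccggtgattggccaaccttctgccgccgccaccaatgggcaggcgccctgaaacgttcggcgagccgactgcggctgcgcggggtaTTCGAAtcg
BUB1B (chr15:40160979-40161078, plus strand): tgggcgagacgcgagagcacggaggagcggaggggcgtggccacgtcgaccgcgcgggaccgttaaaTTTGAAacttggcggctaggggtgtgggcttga
CENPA (chr2:26785966-26786065, plus strand): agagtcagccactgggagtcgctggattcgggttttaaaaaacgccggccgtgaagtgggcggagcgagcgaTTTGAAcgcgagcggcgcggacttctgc
CENPC (chr4:67545494-67545593, minus strand): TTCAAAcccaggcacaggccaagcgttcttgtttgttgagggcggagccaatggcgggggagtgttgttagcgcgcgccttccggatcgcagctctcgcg
CENPN (chr16:81007124-81007223, plus strand): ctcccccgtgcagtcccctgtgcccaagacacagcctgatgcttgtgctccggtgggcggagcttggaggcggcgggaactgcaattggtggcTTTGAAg
NDC80 (chr18:2571467-2571566, plus strand): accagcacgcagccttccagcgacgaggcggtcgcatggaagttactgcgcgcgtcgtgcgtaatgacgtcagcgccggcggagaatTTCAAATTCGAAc
SKA3 (chr13:21176543-21176642, minus strand): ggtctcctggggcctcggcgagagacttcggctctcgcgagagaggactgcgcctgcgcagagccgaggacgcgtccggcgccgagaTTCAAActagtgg
SPC25 (chr2:168890421-168890520, minus strand): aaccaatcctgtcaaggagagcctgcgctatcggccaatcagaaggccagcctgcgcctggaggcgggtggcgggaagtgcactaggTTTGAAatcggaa
ZWINT (chr10:56361250-56361349, minus strand): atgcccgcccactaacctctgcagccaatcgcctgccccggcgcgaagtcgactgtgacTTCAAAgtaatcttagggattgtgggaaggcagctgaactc
In CENPA the match began 18 bases before the start, and in BUB1B 23 bases before it. NDC80 held a pair of adjacent matches, the first of which spanned the start, as did the match in SKA3 and 1 of the matches in SPC25. The match in CENPC, 90 bases upstream, was the exception in this set. CENPF, SKA1, MAD2L1, CENPW, CENPO and NUF2 held theirs between 17 and 46 bases after the start.

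**Figure D1:**
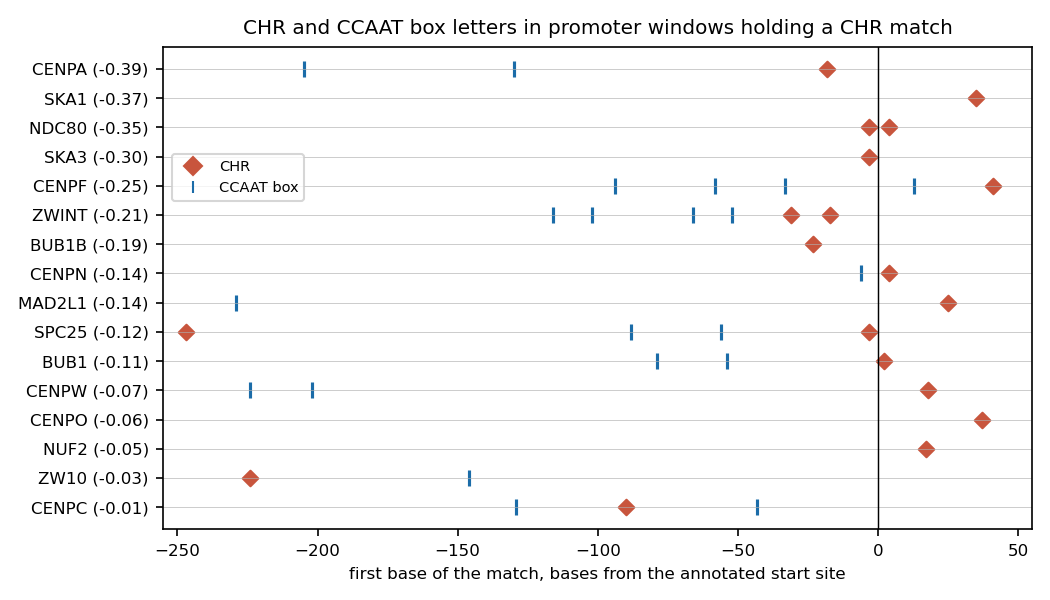
Position of CHR matches (diamonds) and CCAAT box matches (ticks), in bases from the annotated start site, for the 16 genes with a CHR match. Rows are ordered by the log2 ratio of reads, FLI1 over vector control, given in brackets, ZWINT has 2 overlapping windows, and a diamond lies within 50 bases of the start in 14 of the 16 rows.

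CCAAT boxes (CCAAT, either strand), the usual site of NF-Y, stood in the windows of 19 of 32 genes, against 39.7% of all genes and 43.8% of those past the filter. Of these, 10 also held CHR letters. E2F letters (TTTGGCGC, TTTCCCGC, TTTGGCGG or TTTCGCGC, either strand) stood in the windows of CENPA, CENPU, NDC80, ZWILCH and MIS12, against 4.05% of all genes and 7.16% of those past the filter. An ETS core (CCGGAAG, either strand) stood in the windows of SKA1, CENPQ, ZW10 and CENPC, which is 12.5% of the 32 genes, against 12.2% of all genes and 23.8% of those past the filter. The 16 genes with CHR letters had a median log2 ratio of -0.14 between libraries, and the 16 without them -0.16. Genes with and without these letters thus covered nearly the same range, from -0.39 to -0.0085 and from -0.37 to 0.03. Other splits of the same 32 windows gave other orders of the medians. With CHR letters within 50 bases of the start the median was -0.17 and without them -0.11, with E2F letters -0.24 (5 genes) and without them -0.14, with CCAAT boxes -0.14 and without them -0.17, and with an ETS core -0.17 (4 genes) and without it -0.15. None of these differences was tested.

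Reads of the machinery as a whole were slightly lower in the FLI1 library, and no gene of it differed by as much as 2-fold. Together the 39 genes collected 40481 reads in the vector control and 36273 under FLI1, which is 0.279% and 0.247% of all reads. The log2 ratio of these sums was -0.15 (95% counting interval -0.17 to -0.13), or 1.11-fold lower. By gene, 35 of 39 had a log2 ratio below 0, against 50.8% of all genes past the filter, and the median was -0.14 against -0.0036 over all genes. Counting intervals lay wholly below 0 for 20 genes and wholly above 0 for 0 genes, against 14.7% and 16.5% of all genes. An interval narrows as reads rise, and each of the 39 genes had at least 173.96 reads where the filter asked for 20. A share over genes of like depth was not computed. At least 1.2-fold lower were 9 genes, against 10.2% of all genes, and at least 2-fold lower were 0, against 0.48%. None was at least 1.2-fold higher, against 10.8% of all genes. CENPM lay just inside the 1.2-fold limit, a log2 ratio of -0.26, at -0.27, and SKA2 just outside it at -0.259. In whole-dish RNA, fewer cells in G2 and M phase and less of these transcripts in each such cell cannot be told apart.

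**Figure D2:**
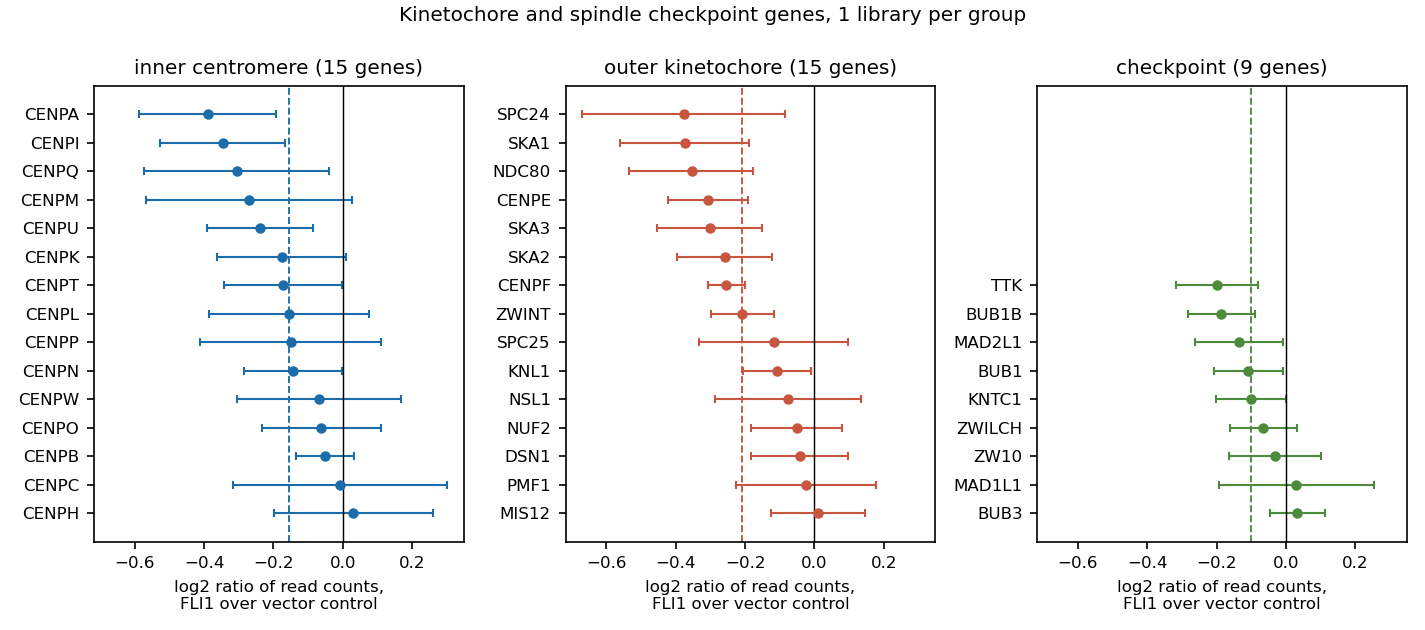
Log2 ratio of read counts, FLI1 over vector control, for each gene of the 3 role groups (1 library per group). Points are ratios, bars 95% counting intervals and dashed lines group medians, which lie at -0.15, -0.21 and -0.10, and 20 of the 39 bars lie wholly below 0.

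The lowest single ratio was that of an inner centromere gene. SPC24 and SKA1 of the outer kinetochore, both at -0.37, had intervals that overlapped its own, so this sets no order between the groups. CENPA, the histone H3 variant that marks the centromere, had 486 control reads and 369 reads under FLI1, the lowest log2 ratio of all 39 genes at -0.39 (-0.59 to -0.19), or 1.31-fold lower. In GRCh38 (GENCODE 29) the gene lies on chromosome 2 from 26764289 to 26801067, on the plus strand. CENPB, which binds a sequence box in centromeric satellite DNA, had 2368 and 2272 reads (-0.05, -0.14 to 0.03). CENPC, the scaffold that binds CENP-A nucleosomes, had 178 and 176 reads (-0.0085, -0.32 to 0.30). CENPA stood apart from the other pair in reads. It was lower than CENPB by a log2 difference of -0.34 (-0.55 to -0.12) and lower than CENPC by -0.38 (-0.75 to -0.01), while the difference between CENPB and CENPC, -0.04, had an interval from -0.36 to 0.28 that included 0.

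The other 12 inner genes, like CENPC, encode parts of the constitutive centromere-associated network, which bridges CENP-A chromatin to the outer kinetochore. In its CENP-H, I, K and M unit, CENPI had 574 and 449 reads (-0.35, -0.53 to -0.17) and CENPH had 314 and 319 (0.03, -0.20 to 0.26). CENPM had 211 and 174 reads (-0.27, -0.57 to 0.03), and CENPK 511 and 450 (-0.18, -0.36 to 0.01). CENPI and CENPH differed from each other by -0.38 (-0.67 to -0.08), although their proteins sit in 1 complex. In the CENP-O, P, Q and U unit, which helps recruit the kinase PLK1 through CENP-U, all 4 genes were below 0. CENPQ had 266 and 214 reads (-0.31, -0.57 to -0.04), and CENPU 758.84 and 640.49 estimated reads (-0.24, -0.39 to -0.08). CENPP, with 260.36 and 232.64 estimated reads, and CENPO, with 574.01 and 546.98, had intervals that included 0.

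Of the remaining network genes, CENPN, whose protein reads the CENP-A nucleosome together with CENP-C, had 854 and 769 reads (-0.14, -0.29 to -0.0012). CENPL, its partner, had 328.79 and 294.40 estimated reads (-0.15, -0.39 to 0.08). CENPT, a histone-fold protein that recruits NDC80 complexes, had 606 and 535 reads (-0.17, -0.34 to -0.0019), and its partner CENPW 308 and 292 (-0.07, -0.30 to 0.17). Intervals of CENPN and CENPT thus ended close to 0. Over the 15 inner genes the median was -0.15. Of them, 14 had a ratio below 0, against 50.8% of all genes, and 6 an interval below 0, against 14.7%.

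Exons of other protein-coding genes on the opposite strand overlap some of these genes in GENCODE 29, and the strand setting of the counting is not given in the sources used here. IPPK covers 30.2% of the exonic bases of CENPP, ADCY3 22.9% of CENPO, PRIMPOL 17.3% of CENPU and CMC2 14.5% of CENPN. NUTF2 covers 2.43% of CENPT, and LCTL 7.87% and the ribosomal protein gene RPL4 1.58% of ZWILCH. Further overlaps are AC092718.8 with 7.38% of CENPN, PTRHD1 with 5.40% of CENPO and NOL8 with 1.13% of CENPP. Reads from such overlaps cannot be told apart from those of the gene.

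The outer kinetochore held the complexes with the lowest ratios among the 39 genes. Its 15 genes had a median of -0.21. Of them, 14 had a ratio below 0, against 50.8% of all genes, and 9 an interval below 0, against 14.7%. The SKA complex, which follows depolymerising microtubule ends, had all 3 gene counts lower under FLI1. SKA1 had 554.41 and 424.88 estimated reads (-0.37, -0.56 to -0.19), SKA2 had 966 and 803 (-0.26, -0.40 to -0.12), and SKA3 had 804 and 649 (-0.30, -0.45 to -0.15). No pair of SKA subunits had a difference whose interval excluded 0. On the most abundant transcript of each gene alone, SKA1 was at -0.37, SKA2 at -0.06 and SKA3 at 0.20, so the ratio of SKA3 depends on which of its transcripts are counted.

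In the NDC80 complex, the main microtubule coupler, the 4 subunits were uneven. NDC80 had 590 and 459 reads (-0.35, -0.53 to -0.18), or 1.28-fold lower. NUF2, whose protein pairs with NDC80 to form the microtubule-binding end, had 979 and 940 reads (-0.05, -0.18 to 0.08). Their difference was -0.30 (-0.53 to -0.08). SPC24 had 227 and 173.96 estimated reads (-0.37, -0.67 to -0.08) and SPC25 had 372.04 and 341.01 (-0.12, -0.33 to 0.10), the pair that docks the complex on the inner kinetochore. For SPC24 against SPC25 the difference of -0.26 had an interval from -0.62 to 0.11.

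The MIS12 complex, which joins the NDC80 complex and KNL1 to the inner kinetochore, was the outer complex with ratios nearest to 0. MIS12 had 894 and 896 reads (0.01, -0.12 to 0.15), DSN1 868 and 838 (-0.04, -0.18 to 0.10), and NSL1 389 and 367 (-0.08, -0.29 to 0.13). PMF1 had 406.77 and 398.47 estimated reads (-0.02, -0.23 to 0.18), and 49.2% of its exonic bases belong also to the readthrough gene PMF1-BGLAP, which had 52.23 and 38.53. Intervals of all 4 included 0, against 68.8% of all genes past the filter, and the summed reads gave -0.03 (-0.11 to 0.05). In the read counts of these genes no difference was detectable at this depth. Single transcripts did have intervals off 0. In DSN1 the main transcript had 471.11 and 544.04 estimated reads (0.22, 0.04 to 0.40) and NM_001145318 had 116.27 and 54.78 (-1.06, -1.56 to -0.59). NSL1, which stood at -0.34 by the length-scaled unit FPKM, had NM_001297739 at -0.60 (-1.07 to -0.15).

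KNL1, the large scaffold on which BUB1 and BUBR1 assemble, had 1732.15 and 1599 estimated reads (-0.11, -0.21 to -0.0086). ZWINT, which binds KNL1 and helps recruit the RZZ complex, had 2108 and 1815 reads (-0.21, -0.30 to -0.12). On the outermost corona, CENPF had 6441 and 5373 reads (-0.25, -0.31 to -0.20), the largest count and the narrowest interval of the set. CENPE, a kinesin that carries chromosomes towards the spindle equator, had 1368 and 1100 reads (-0.31, -0.42 to -0.19). Reads of the corona genes CENPE and CENPF were thus both lower, and the interval of their difference ran from -0.18 to 0.07.

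The 9 checkpoint genes had a median of -0.10, the nearest to 0 of the 3 role groups. Ratios were below 0 in 7 of the 9, against 50.8% of all genes, and intervals in 5, against 14.7%. None was at least 1.2-fold lower, against 10.2% of all genes. TTK, the kinase also called MPS1 that starts the checkpoint signal, had 1260 and 1091 reads (-0.20, -0.32 to -0.08). BUB1B, which encodes BUBR1 of the mitotic checkpoint complex, had 1860 and 1625 (-0.19, -0.28 to -0.09), and the kinase gene BUB1 had 1730 and 1596 (-0.11, -0.21 to -0.0095). All 3 intervals lay below 0, and no pair of these genes had a difference whose interval excluded 0. The readthrough gene BUB1B-PAK6 had 274.82 and 112.94 estimated reads, and 4.57% of the exonic bases of BUB1B belong also to it. Summed with BUB1B the log2 ratio was -0.29 (-0.38 to -0.20), against -0.19 for BUB1B alone. How many of the readthrough reads lay in the shared bases was not tested, so the sum need not describe BUB1B itself.

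MAD2L1 encodes MAD2, which is converted at unattached kinetochores into the form that holds CDC20, and it had 1058.01 and 958 estimated reads (-0.14, -0.26 to -0.0080). MAD1L1 encodes MAD1, the anchor of MAD2, and had 332 and 337 reads (0.03, -0.19 to 0.25). BUB3, the adaptor of BUB1 and BUBR1, had 2595 and 2640 reads (0.03, -0.05 to 0.11), the highest ratio of the 39 genes. MAD2L1 was lower than BUB3 by -0.17 (-0.32 to -0.02). In the RZZ complex, which builds the corona and brings MAD1 to kinetochores, KNTC1 had 1646 and 1526 reads (-0.10, -0.20 to -5.8e-05). ZWILCH had 1759.74 and 1672.87 estimated reads (-0.07, -0.16 to 0.03), and ZW10, which also acts in membrane traffic outside mitosis, 943 and 917 (-0.03, -0.17 to 0.10).

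Between the 3 role groups the differences were small, and partly rested on the gene with most reads in each. Summed reads gave -0.20 (-0.23 to -0.17) for the outer kinetochore, -0.15 (-0.19 to -0.10) for the inner centromere and -0.08 (-0.12 to -0.05) for the checkpoint. The outer sum was below the checkpoint sum by -0.12 (-0.16 to -0.07) and below the inner sum by -0.06 (-0.11 to -0.0021). CENPF held 34.4% of the outer reads in the control, CENPB 27.5% of the inner and BUB3 19.7% of the checkpoint reads. Without these 3 genes the outer and inner sums no longer differed in a set direction (0.0079, -0.06 to 0.07). Below the checkpoint sum, by contrast, the outer (-0.06, -0.11 to -0.0043) and inner (-0.07, -0.13 to -0.00083) sums both remained. Of all 43 pairs of genes within the 13 complexes, 6 had a difference whose interval excluded 0, with no adjustment for the number of pairs. These were CENPA with CENPB and with CENPC, CENPI with CENPH, SPC24 with NUF2, NDC80 with NUF2, and MAD2L1 with BUB3.

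Levels per length spanned a wide range and kept nearly the same order in both libraries. By deposited FPKM, which scales reads for transcript length and depth, BUB3 led with 114.28 in the control library and 117.76 under FLI1. ZWINT followed with 98.64 and 82.21, CENPB with 62.47 and 59.34, and CENPN with 51.51 and 46.75. At the low end stood CENPC with 3.53 and 3.39, and CENPP with 4.53 and 3.48. The median FPKM of the 39 genes was 23.58 with the vector and 20.26 with FLI1. CENPH gained 5 places in the order, the largest shift, at 20.08 and 20.26 while its neighbours were lower. The essential centromere scaffold CENPC was thus the least abundant transcript per length, and the box-binding protein CENPB was among the most abundant.

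**Figure D3:**
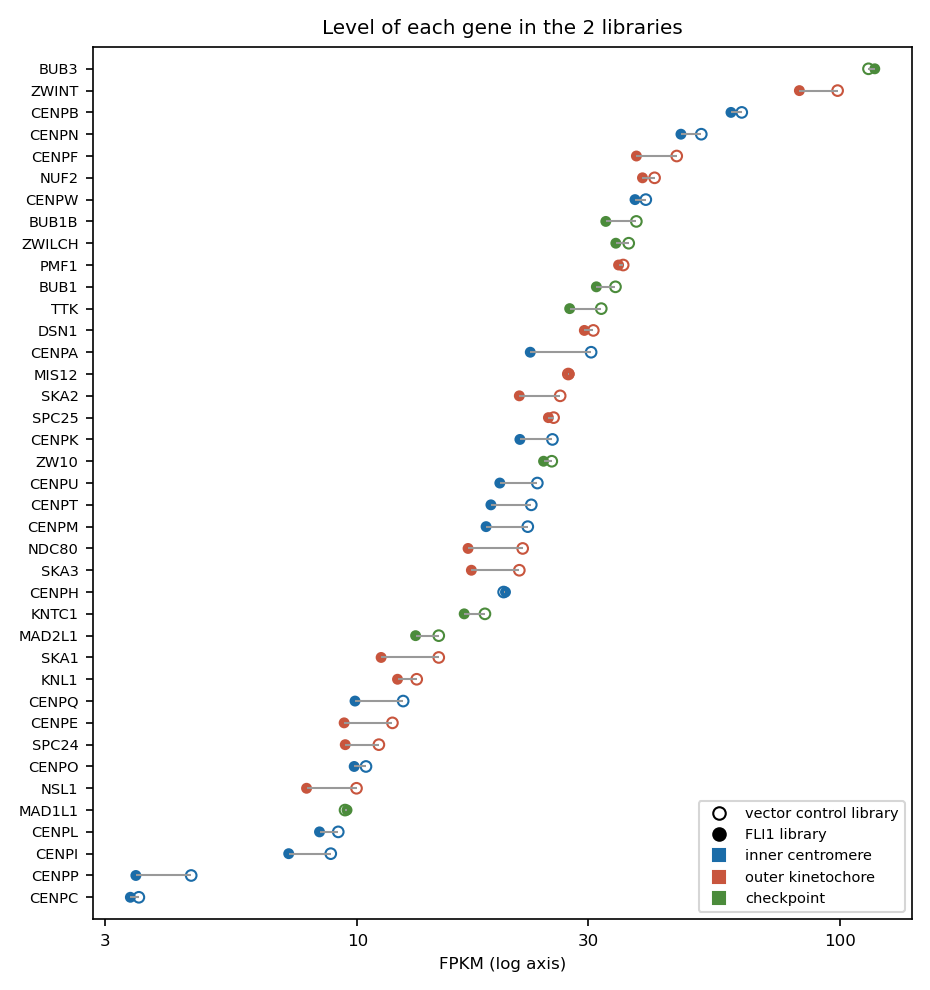
FPKM (log axis) of each gene in the vector control library (open circles) and the FLI1 library (filled circles), ordered by the control value and coloured by role. Filled circles lie left of open ones for 35 of 39 genes, and BUB3, MAD1L1, MIS12 and CENPH are the exceptions. Of all 11659 genes past the filter, 6379 had a lower FPKM in the FLI1 library.

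For 4 genes the log2 ratio of FPKM and that of reads were over 0.1 apart, which FPKM allows because it weighs reads by transcript length. NSL1 was at -0.34 by FPKM and -0.08 by reads. Of its 3 main transcripts, NM_001297739 gave the most FPKM per read and had 103.5 and 67.62 estimated reads, while NM_015471 had 41.31 and 58.72. CENPP was at -0.38 by FPKM and -0.15 by reads, with XM_011518685 at 29.56 and 6.93 reads. CENPT was at -0.28 and -0.17, and SPC24 at -0.23 and -0.37. For these genes the size of the difference therefore depends on the scale.

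The transcript table splits the reads of the 39 genes over 161 transcripts, of which 81 had at least 20 reads in 1 library and at least 10% of the reads of their gene. Of these 81, 58 had a ratio below 0, against 50.3% of all 22818 transcripts past the same rule, and the median was -0.14 against -0.0026. Intervals lay below 0 for 35, against 25.9%, and above 0 for 6, against 25.7%. At least 2-fold lower were 9, against 9.89%, and at least 2-fold higher were 2, against 10.1%. The share at least 2-fold lower was thus near that of all transcripts. The interval leaves out the error of dividing reads among overlapping transcripts, so a transcript is known less well than its gene.

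Within some genes the transcripts differed in ratio. CENPA had 407.25 and 347.18 estimated reads in its main transcript and 78.75 and 21.82 in NM_001042426, so the latter went from 16.2% to 5.91% of the gene. In SKA1, 1 entry of NM_001039535 had 77.62 reads with the vector and 0 with FLI1. A second entry of the same transcript had 189.64 and 163.91, so the 0 does not mean that the transcript was absent. The main transcript of SKA1 had 287.14 and 219.92. In SKA3 the main transcript had 387.57 and 442.67 reads and the next 338.97 and 158.79, so the lower gene count lay in the second. SPC25 also held transcripts on both sides of 0, with 259.74 and 159.38 reads in its main transcript and 56.44 and 116.81 in XM_011511516. A second entry of that main transcript had 55.86 and 64.83. Transcripts with ratios on both sides of 0 were found in 20 of the 29 genes with several transcripts past the rule. In 5 genes 1 transcript had an interval above 0 and another below it. The same counts were not made over all genes, so neither can be called particular to these genes. BUB1, BUB1B, CENPB, CENPH, MAD2L1 and NDC80 each had all their reads in 1 transcript, so their ratios carry no such split.

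**Figure D4:**
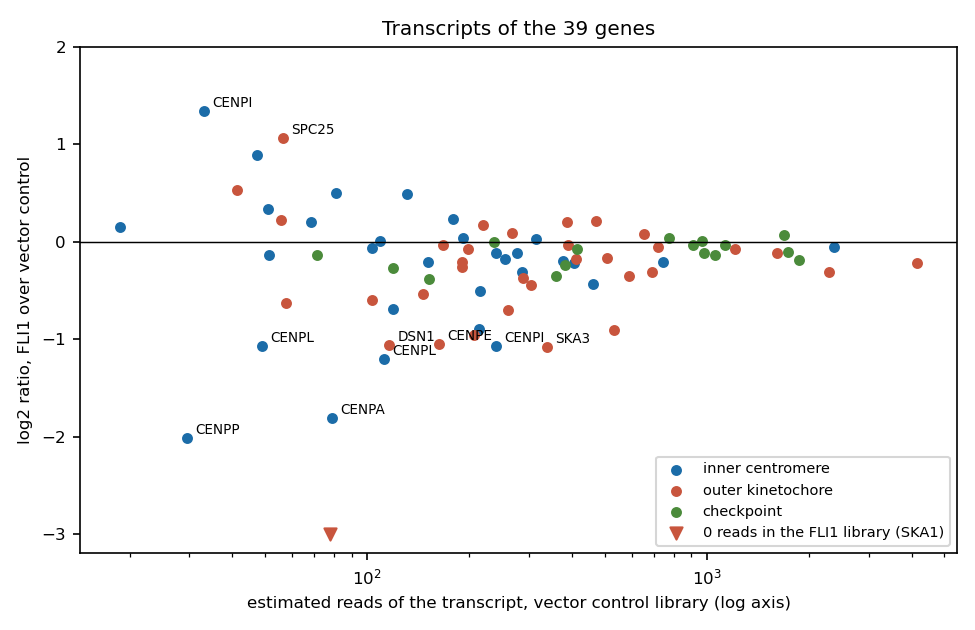
Log2 ratio of each of the 81 transcripts, FLI1 over vector control, against its estimated reads in the vector control library (log axis), coloured by role. Names mark transcripts at least 2-fold apart. The triangle, drawn at the lower edge, is an SKA1 entry with 0 reads in the FLI1 library. The same transcript is listed again with 189.64 and 163.91 reads. The spread is widest at the left, where reads are fewest.

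Lists of other genes that act with the kinetochore differed in their medians. The counts below stand against 14.7% of all genes with an interval below 0 and 16.5% with one above it. Of the 7 other inner centromere and CENP-A loading genes, 3 had an interval below 0, with a median of -0.15. HJURP, the chaperone that loads CENP-A, had 1225 and 955.01 reads (-0.35, -0.47 to -0.23), close to the ratio of CENPA, while CENPS was at 0.05. The chromosomal passenger complex and shugoshins, which correct wrong attachments and guard cohesion, had 5 of 7 intervals below 0 and a median of -0.21, from SGO2 at -0.29 to HASPIN at -0.06. All 6 measured checkpoint partners had an interval below 0, with a median of -0.23, from PLK1 at -0.29 to TRIP13 at -0.14.

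Microtubule linkers used at kinetochores divided, with 4 of 11 intervals below 0 and 3 above it. KIF18A, a mitotic kinesin, was lowest at -0.31, and CLIP1, a microtubule plus-end protein of interphase as well, was highest at 0.30. For the anaphase-promoting complex, the target of the checkpoint, the median was 0.01, and 2 of 15 intervals lay below 0 and 0 above it, from ANAPC15 at -0.23 to ANAPC10 at 0.22. Its count below 0 was near the share of all genes. For cohesin, separase and securin the median was -0.04, and 3 of 8 intervals lay below 0 and 1 above it. ESPL1, the protease separase, was lowest at -0.32, and the cohesin subunit gene STAG2 highest at 0.08. All 3 role groups of the kinetochore had lower medians than these last 3 lists, and no list held a gene 2-fold apart. The differences between lists were not tested.

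**Figure D5:**
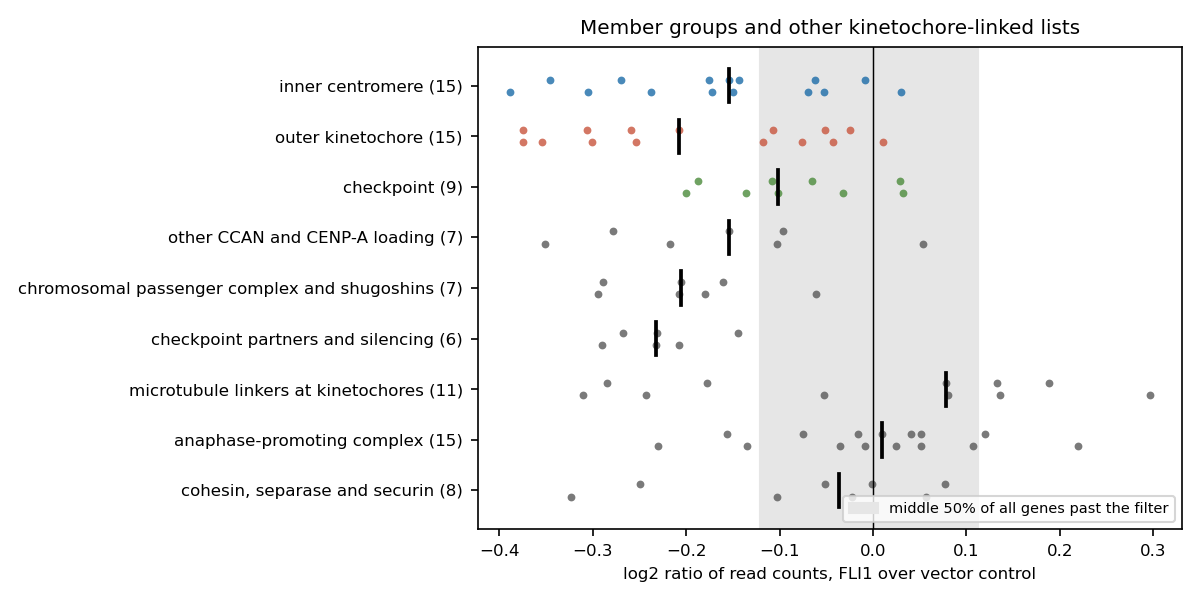
Log2 ratios of single genes (points) and list medians (black bars) for the 3 role groups and 6 lists of genes that act with the kinetochore, with gene numbers in brackets. The grey band is the middle 50% of all 11659 genes past the filter, from -0.12 to 0.11. Inside it lie the medians of the checkpoint group (-0.10), the cohesin list (-0.04), the anaphase-promoting complex (0.01) and the microtubule linkers (0.08).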

How the data were processed

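RNA-seq tables of 2 HaCaT libraries were used, with groups from the genotype labels. BGISEQ reads of total RNA were made, per the labels' protocols. The submitters' processing notes name GRCh38.p13. Which aligner, counter, annotation and strand setting were used was not given in the sources used here. Both deposited tables together list 15159 genes and 61479 transcripts. Per the file headers they hold estimated counts, some of them fractional, with FPKM and TPM values that the authors scaled by length and depth. Counts were whole to within 0.005 reads for 28 of the 39 genes. Each value column belongs to 1 of the samples.

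Raw counts had been assumed in the design, so estimated counts were rounded first. TMM factors came from edgeR 4.0.16 (R 4.3.3). The log2 ratio is that of the rounded count plus 0.5 over the effective library size. Its 95% interval is exact conditional (Clopper-Pearson) and covers counting error alone, because each group had 1 library. Without molecular identifiers several reads can stem from 1 molecule, so the interval may be too narrow even for counting error. The half-width of the interval was 0.29 with 200 reads in each library and 0.09 with 2000. Intervals of a difference between 2 log2 ratios are exact conditional intervals of the odds ratio (scipy 1.17.1). No p-value was computed. The calculation was run on simulated Poisson counts, the model that the interval assumes, so this checked the code and not its fit to these data. Fractional counts and TMM scaling were not simulated.

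The genes, lists, motifs and the 1.2-fold limit were chosen with earlier results of these data known. All 39 genes are named, with FLI1, readthrough partners, and the lowest and highest gene of each other list. A few values of other genes (marker genes) stand beside the check of the cell type. Alternatives were another scaling, other filters, FPKM or TPM with a pseudocount, whole counts only, main transcripts and a 99% interval. Figures were drawn with matplotlib 3.10.9.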

Additional observations from a re-analysis of the deposited data

How the results depend on the processing

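No paired analysis was possible because each group had 1 library. Dropping the filter or raising it to 100 reads could move no value of the 39 genes, as their lowest count was 173.96 reads. Values under these filters are still counted here. Over the alternative settings, the medians of all 39 genes and of the 3 role groups stayed below 0. Of 52 recomputed counts and medians, 49 stayed within 1.5 times of the count or within the counting interval of the median gene. The exceptions were 14 genes at least 1.2-fold lower on TPM with 0.5 added, where 9 were found on counts, 12 genes with an interval below 0 at the 99% level, where 20 were found at 95%, and an outer kinetochore median of -0.11 with the most abundant transcript of each gene alone. In that setting the inner median was -0.20 and the checkpoint median -0.03, so the outer and inner groups changed order, and 29 of 39 ratios lay below 0 where gene counts gave 35. SKA3, whose gene-level interval excluded 0, changed sign to 0.20. Genes whose interval included 0 also changed sign, namely CENPL (0.49), DSN1 (0.22), NUF2 (0.08), CENPP (0.04), ZW10 (0.04), ZWILCH (0.0063) and MIS12 (-0.17). CENPI, at -0.35 by gene, was at -1.07 on its most abundant transcript, SPC25 at -0.70 and CENPN at -0.43. Beside SKA3, 13 values of single genes moved beyond their interval, 10 of them with main transcripts and 3 for NSL1 on FPKM or TPM. Those with main transcripts include CENPI, CENPL, CENPN, DSN1, MIS12, NUF2 and SPC25, already named above. The cause was not tested. FPKM and TPM carry no counts, so they gave no number of intervals below 0. The median of all genes was -0.0036 with TMM and -0.03 when scaled by library total. Leaving out the gene with most reads in each role group, chosen after the data had been seen, moved the summed ratios to -0.17, -0.18 and -0.12 for outer, inner and checkpoint genes. Depth limits the genes with about 200 reads, such as CENPC, CENPM and SPC24.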
